A study of Sus scrofa with 6 samples.

Results

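The proteasome was examined through 40 of the 43603 probes of a pig oligonucleotide array. A probe was taken when its description in the scanner files held the word proteasome, which 39 did, or when its gene name began with the letters of a PSMA, PSMB, PSMC, PSMD or PSME subunit, which added 1 probe, for PSMA4. The rule itself used no intensity, but it was chosen with earlier results of these data known. The skeletal muscles compared came from female Landrace pigs, 210 days old at slaughter. They were *longissimus dorsi* (LDM), a fast glycolytic back muscle, and *psoas major* (PMM), a more oxidative loin muscle. The study took both muscles from 3 pigs, and each muscle was hybridised to 3 one-colour arrays, numbered 1 to 3 in the labels. The labels do not tie a number to a pig, no animal was treated, and all had the same diet and a day without feed before slaughter.

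The proteasome is the large barrel-shaped protease that destroys proteins marked with ubiquitin. Rings of alpha subunits gate the barrel, and rings of beta subunits hold the cutting sites. A regulatory particle docks on the end, recognises ubiquitin, unfolds the substrate and feeds it in. Interferon induces the replacement beta subunits PSMB8, PSMB9 and PSMB10 and the activator subunits PSME1 and PSME2, which favour peptides for display to T cells. In muscle the ubiquitin-proteasome route degrades contractile proteins when fibres waste.

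The 40 probes named 21 proteins, 9 of them by more than 1 probe. RefSeq accessions in the files named 21 probes, a gene number 1 and the files' own gene name 1. The other 17 were contigs of expressed sequence, known only from a description of similarity to a protein, often of another species. PSMD3 rested on a mosquito protein in this way, and 3 alpha-type probes had no subunit number. The rule took 11 probes of the alpha ring, 4 of the constitutive beta ring, 12 of the regulatory particle and 9 of the immune subunits. Those of the regulatory particle include the probes of PSMD10, which is an assembly chaperone. The remaining 4 were PSME3 (a nuclear activator cap), PSMG3 (an assembly chaperone) and ECM29, an adaptor that tethers regulatory and core particles, with 2 probes. No ATPase of the PSMC family came in by the rule.

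The probe sequences that matter for the results are given 5′ to 3′ as the files hold them, 1 probe a line. The first is PSMB8, whose 60 bases are shown because it had the largest difference among the immune subunits; the capitals mark a stop codon that ends its first reading frame, which holds no earlier stop. The 3 PSMB10 probes come next because they did not behave alike. A pair of them overlaps, with the shared bases in capitals, and only their first 30 bases are shown. Then come both PSMB9 probes (first 30 bases), 2 probes of PSMD1, which had the widest spread between replicates, and PSMD11 (first 30 bases), which had the largest difference between muscles.
PSMB8, probe A_72_P088176: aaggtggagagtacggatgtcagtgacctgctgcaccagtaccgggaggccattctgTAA
PSMB10, probe A_72_P024281: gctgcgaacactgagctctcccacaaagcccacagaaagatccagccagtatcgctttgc
PSMB10, probe A_72_P088096: aagtaagcctAGGCTTACTTGGAATAAGGA
PSMB10, probe A_72_P003971: AGGCTTACTTGGAATAAGGAACAAGGAGGA
PSMB9, probe A_72_P035551: tctatgacgagtgactcttcctcagacctc
PSMB9, probe A_72_P362653: tacttgtttatctatttacacttgaaatca
PSMD1, probe A_72_P023016: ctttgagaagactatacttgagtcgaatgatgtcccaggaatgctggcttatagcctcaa
PSMD1, probe A_72_P073866: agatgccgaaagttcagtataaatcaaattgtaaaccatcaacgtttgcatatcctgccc
PSMD11, probe A_72_P017966: agcaaatgccatttactggccccctaaatt

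The overlapping PSMB10 probes shared a run of 50 bases, so they read nearly the same stretch of the transcript, whereas the longest run that either shared with the remaining PSMB10 probe was 6 bases. Of the other pairs of probes for 1 subunit, a pair of PSMD10 probes shared 19 bases and no further pair shared 12. Every probe was 60 bases long, with 35 to 55% G and C and a median of 40.8%, beside 40% for all probes. The run AATAAA, searched as printed on the probe's own strand, occurred in 9 member probes (22.5%) and in 12.1% of all probes. In the RefSeq annotation of the pig, PSMB8 and PSMB9 flank TAP1, the peptide transporter gene. The coding stretch or end of the transcript that each probe reads was not determined here.

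Of the 40 probes, 35 stood clearly over background on every array of at least 1 muscle and were tested. The 5 left out were all contigs, namely 2 for PSMA6, 1 for PSMA2, 1 for PSMB4 and the second PSMB9 probe, and each stood over background on 1 array at most. PSMA6, PSMB4 and PSMB9 each had at least 1 other probe that was tested. Between 58.5 and 72.4% of an array's spots stood over background and none was saturated. Muscle markers were present as labelled: all 11 probes of fibre genes were detected on every array, with a summed level of 4753 to 8547 times the array's 75th percentile. Throughout, a level is log2 of the intensity over that percentile, and a difference is PMM minus LDM on that scale, where 1 unit is a doubling.

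No proteasome probe passed the test between PMM and LDM. With limma and Benjamini-Hochberg adjustment over 25826 probes, 0 of 35 were called at an adjusted p under 0.05, where 8 of all probes (0.031%) were called. None of the 35 passed an unadjusted p of 0.05 either, against 2.63% of all probes, and the smallest unadjusted p was 0.207. With the replicate number as a block, 17 probes of all (0.0658%) and again 0 of 35 were called, and 1 of 35, PSMD11, had an unadjusted p under 0.05 (11.1% of all probes). No probe had arrays of PMM all above or all below those of LDM, which 3.09% and 2.89% of all probes had. The difference was smaller than the standard deviation (SD) within a muscle for 31 of 35 probes, as for 82.3% of all probes.

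The intervals show what the arrays could resolve. Over the 35 probes the 95% intervals of the difference reached from -1.82 to 1.62 without a block, and from -1.08 to 0.85 with it. In the blocked fit the standard error was 0.16 to 0.26. A doubling in either direction therefore lay outside the blocked interval of every tested probe except that of PSMD11, whose lower bound was -1.08. Smaller changes could be missed. Without the block, whose pairing the labels do not state, several intervals held a doubling or a halving. That of PSMB9 ran from -1.33 to 1.62, and that of the second PSMD1 probe from -1.82 to 1.39. The plot of differences with their intervals shows this for each probe.

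**Figure D1:**
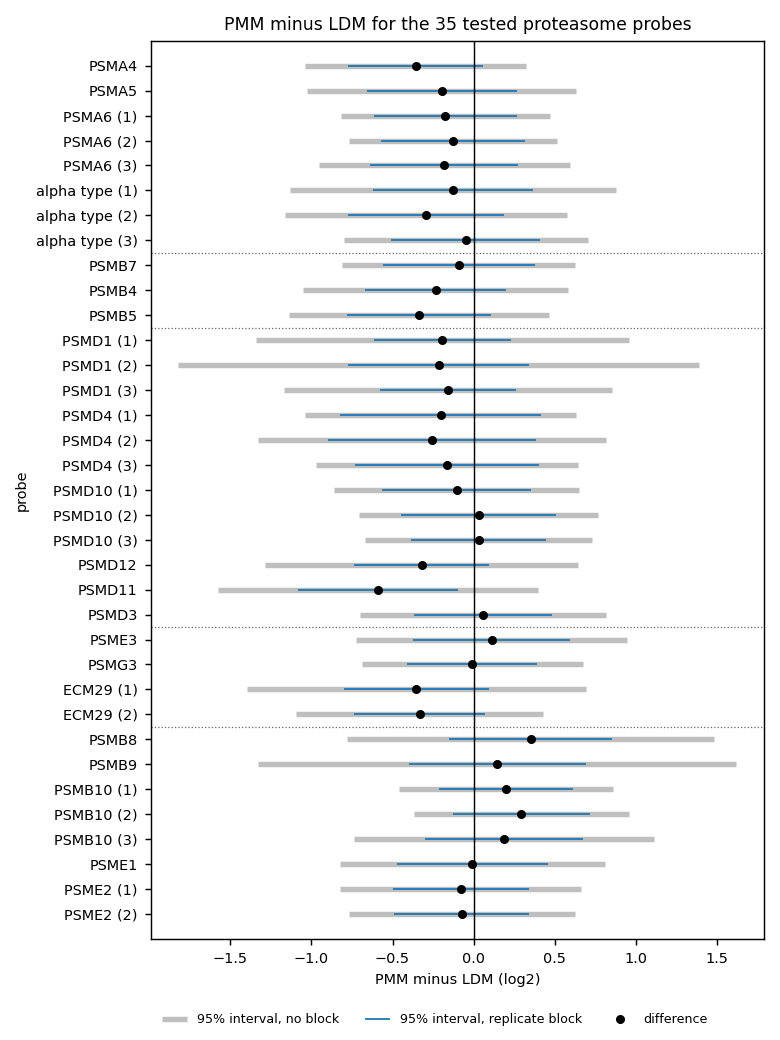
PMM minus LDM (log2, horizontal axis) for the 35 tested proteasome probes, ordered by group. Points are the differences, wide grey bars the 95% interval without a block and thin blue bars the interval with the replicate block. All grey bars cross 0, and of the blue bars only that of PSMD11, from -1.08 to -0.099, does not.

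By direction alone, 26 of 35 probes were lower and 9 higher in PMM, beside 55.9% and 44.1% of all probes. The median difference was -0.13, beside -0.04 for all probes. Within the replicate numbers the median was 0.04, -0.03 and -0.32, so the third pair of arrays held most of it. Without the PMM array of replicate 3, 14 of 35 were lower and the median was 0.05. The SD of the 3 medians was 0.19, larger than the median itself. Lower in all 3 pairs were 10 probes (19.3% of all probes) and higher in all 3 were 3 (16.3%).

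Alpha ring probes were all lower in PMM, by little. The 8 tested had a median of -0.18, from -0.36 to -0.050. PSMA4 read 4.61, 4.79 and 4.39 in LDM and 4.40, 4.36 and 3.96 in PMM. The PMM array of each number was the lower one, but the groups overlapped, and the difference was -0.36 ± 0.30 (SE, n = 3 per muscle; limma adjusted p = 0.999982, and 0.514 with the replicate block). The second alpha-type probe of no given number, matched to a rat protein, read -2.93, -3.66 and -4.12 in LDM and -3.57, -3.87 and -4.15 in PMM, a difference of -0.29 ± 0.38. PSMA5 read 6.14, 5.99 and 5.61 in LDM and 6.18, 5.84 and 5.13 in PMM, a difference of -0.20 ± 0.36. For PSMA5 only the third PMM array lay apart from its LDM partner. The 3 tested PSMA6 probes shared no run of 12 bases and gave -0.17, -0.13 and -0.18.

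The constitutive beta ring had 3 tested probes and a median of -0.23. PSMB5, the chymotrypsin-like protease subunit, read 5.73, 5.20 and 5.13 in LDM and 5.45, 5.06 and 4.55 in PMM. The difference was -0.34 ± 0.35, with the lower value in PMM in each number and overlapping groups. PSMB4, a structural subunit, read 6.51, 6.27 and 5.89 in LDM and 6.36, 6.18 and 5.43 in PMM, a difference of -0.23 ± 0.36. PSMB7, the trypsin-like protease subunit, read 2.90, 2.98 and 2.67 in LDM and 3.13, 2.75 and 2.39 in PMM, a difference of -0.092 ± 0.31, and here the first pair ran the other way. Without the third PMM array the group's median was 0.046.

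The regulatory particle had 12 tested probes, 9 lower and 3 higher in PMM, with a median of -0.18 that was 0.13 without the third PMM array. PSMD11, a scaffold of the lid, read 0.86, -0.37 and 0.62 in LDM and 0.37, -0.69 and -0.33 in PMM. The PMM array was lower in each number, and the second array was the lowest of each muscle. The difference of -0.59 ± 0.43 was the largest of the 35 probes, 1.51-fold higher in LDM, and did not pass limma in either fit (adjusted p = 0.999982, and 0.376 with the block). PSMD12, another lid scaffold, read 3.01, 2.69 and 2.0 in LDM and 2.72, 2.50 and 1.53 in PMM, a difference of -0.32 ± 0.42. The second probe of PSMD4, the ubiquitin receptor, read 3.72, 2.84 and 3.26 in LDM and 3.99, 2.66 and 2.39 in PMM, a difference of -0.26 ± 0.47. All 3 PSMD4 probes were higher in PMM in the first pair and lower in the second and the third. PSMD10, an assembly chaperone also known as gankyrin, was counted in this group and gave -0.10, 0.030 and 0.031 on its 3 probes. Its probes at 0.030 and 0.031 are among the 3 higher ones.

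ECM29, PSMG3 and PSME3 had a median of -0.17. The first ECM29 probe read 7.60, 6.67 and 6.41 in LDM and 7.21, 6.56 and 5.84 in PMM, a difference of -0.35 ± 0.46. The second read 4.64, 4.37 and 3.99 in LDM and 4.37, 3.96 and 3.66 in PMM, a difference of -0.33 ± 0.33. Both were lower in PMM in each number. PSME3 read 2.57, 2.22 and 2.06 in LDM and 2.93, 2.43 and 1.81 in PMM, a difference of 0.11 ± 0.37, and PSMG3 gave -0.0091 ± 0.30.

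The immune subunits had the one positive median, 0.17 over 8 probes, 5 of them higher in PMM. Within the replicate numbers their median was 0.36, 0.078 and -0.13. All 8 were higher in PMM in the first pair, whose muscles lay on different slides, and 5 were lower in the third. PSMB8 read -0.014, 0.99 and 1.67 in LDM and 0.72, 1.05 and 1.92 in PMM. PMM was higher in each number, most so in the first, and the difference was 0.35 ± 0.50 (1.28-fold; limma adjusted p = 0.999982, and 0.589 with the block). PSMB9 read 1.92, 2.97 and 4.36 in LDM and 2.54, 2.98 and 4.16 in PMM, a difference of 0.15 ± 0.65. Within the numbers the PSMB9 difference was 0.62, 0.012 and -0.20, while the means of the numbers spanned 2.02.

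PSMB10 gave differences of the same sign on its 3 probes. The overlapping pair read 2.07, 2.44 and 2.32 in LDM against 2.38, 2.66 and 2.39 in PMM, and 2.76, 3.07 and 2.94 against 3.16, 3.44 and 3.05. Their differences were 0.20 ± 0.29 and 0.29 ± 0.29, with PMM higher in each number. The third read 2.25, 2.84 and 3.57 in LDM and 2.80, 2.93 and 3.50 in PMM, a difference of 0.19 ± 0.41, and it alone of the 3 separated the numbers as PSMB9 did.

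The activator subunits PSME1 and PSME2 had differences near 0. PSME1 read 4.09, 3.89 and 4.86 in LDM and 4.29, 3.98 and 4.54 in PMM, a difference of -0.0078 ± 0.36. The first PSME2 probe read 3.76, 3.77 and 4.42 in LDM and 3.79, 3.73 and 4.17 in PMM, and the second 0.50, 0.57 and 1.06 against 0.51, 0.57 and 0.82. Their differences were -0.080 ± 0.32 and -0.074 ± 0.30. On all 3 probes replicate 3 held the highest array of either muscle. The positive median of the immune group depended on single arrays: it was -0.12 without the LDM array of replicate 1 and -0.085 without the PMM array of replicate 3. It was also -0.012 after normexp background correction, which raised the median of all probes from -0.04 to 0.11. The opposite signs of the immune and the other groups were not tested against each other.

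**Figure D2:**
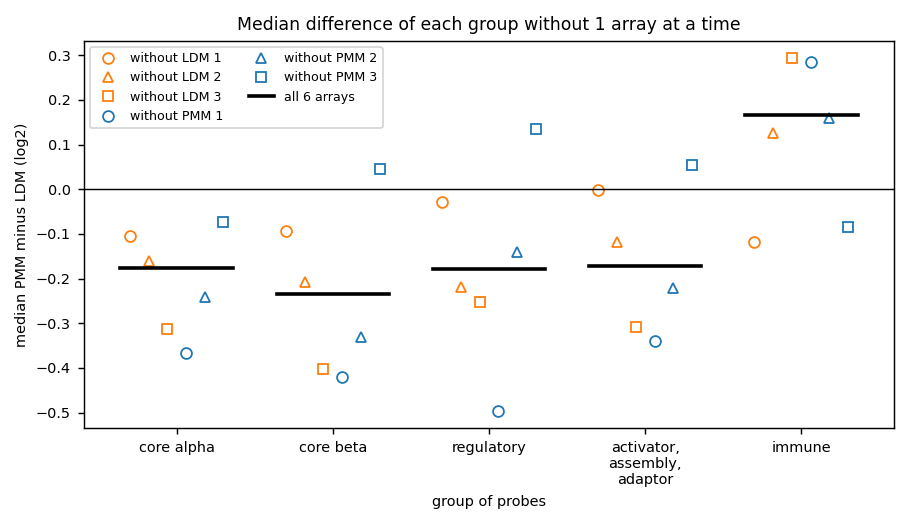
Median of PMM minus LDM (log2, vertical axis) for the tested probes of each group with all 6 arrays (black line) and with each array left out in turn (orange for LDM, blue for PMM; circle, triangle and square for replicates 1, 2 and 3). Without the PMM array of replicate 3, the medians of the beta ring (0.046), the regulatory particle (0.13) and the activator, assembly and adaptor probes (0.054) lay above 0 and that of the immune subunits (-0.085) below it.

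Between replicates 1 and 3, the immune probes mostly lay in the opposite direction from the other proteasome probes. The span between the means of the 3 numbers exceeded the difference between muscles for 34 of 35 probes, as it did for 91% of all probes, and its median was 0.69 beside 0.79 for all probes. The comparison of numbers was added after the values were seen. Pig, scan date and number cannot be told apart, because each number also had a scan date of its own. Both arrays of replicate 2 shared a slide, as did both of replicate 3. In replicate 1 the muscles lay on different slides, so muscle and slide cannot be told apart within that pair. Arrays of the same number deviated together (correlation over probes of the deviations from the muscle means 0.616, 0.697 and 0.560). In replicate 3 against replicate 1, all 8 immune probes were higher in LDM and 7 of 8 in PMM, whereas 23 of the other 27 were lower in LDM and 26 of 27 in PMM. Above in both muscles were 7 of the 8 immune probes and 33.2% of all probes, and below in both were 23 of the other 27 and 41.1% of all probes. The median shift of replicate 3 from 1, averaged over the muscles, was 0.52 for the immune subunits, -0.45 for the alpha ring, -0.75 for the beta ring and -0.61 for the regulatory particle, beside -0.04 for all probes.

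**Figure D3:**
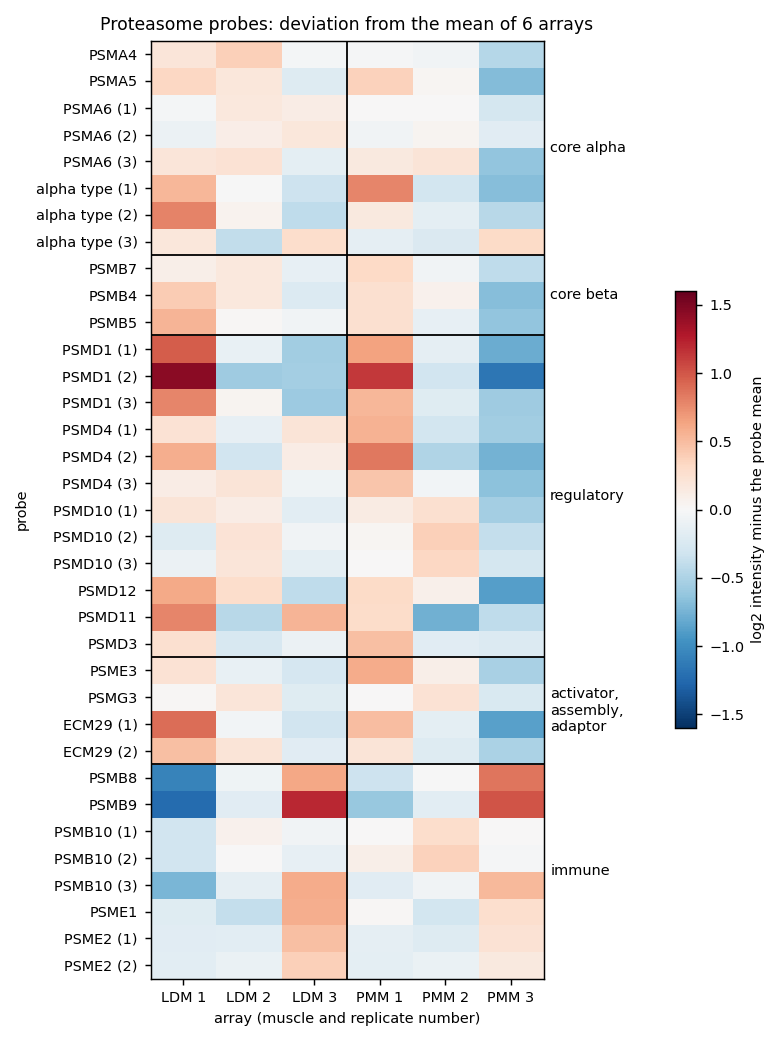
Deviation of each array (columns) from the probe's mean over the 6 arrays, in log2 (colour, red above and blue below the mean), for the 35 tested proteasome probes (rows, by group). The immune block at the bottom is mostly blue in replicate 1 and red in replicate 3 of both muscles, and most other probes show the reverse.

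PSMB9, which replaces a constitutive catalytic subunit in the immune form, had the widest span of that group. Its replicate 3 was 5.41-fold above replicate 1 in LDM and 3.06-fold in PMM (F test of the replicate number in limma, adjusted p = 0.0277). PSMB8 was 3.21-fold and 2.29-fold above (adjusted p = 0.0328). The third PSMB10 probe was 2.50-fold and 1.63-fold above (adjusted p = 0.0584), while the overlapping pair spanned only 0.33 and 0.30 between numbers (adjusted p = 0.414 and 0.434). Probes of 1 gene thus read differently here. PSME1, at 1.71-fold and 1.19-fold, and PSME2 shifted the same way without passing the test.

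PSMD1, a scaffold of the base of the regulatory particle, ran opposite to PSMB9. Its 3 probes read 5.37, 4.27 and 3.83, then 1.67, -0.34 and -0.32, then 0.91, 0.17 and -0.45 in LDM. In PMM they read 5.04, 4.25 and 3.60, then 1.37, -0.076 and -0.93, then 0.66, -0.061 and -0.44. Replicate 1 was the highest on each probe in each muscle. On the second probe replicate 1 was 3.96-fold above replicate 3 in LDM and 4.90-fold in PMM. All 3 passed the test of the number (adjusted p = 0.0278, 0.0277 and 0.0316), as did PSMD11, PSMD12, the first ECM29 probe and the first alpha-type probe.

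In all, 9 of 35 probes passed the test of the number, close to the 25.1% of all probes that did, so the count says nothing particular about the proteasome. It was 0 after normexp, and 0 without array 2 or array 3 of either muscle, where 0 or 1 of all probes passed. The direction depended less on processing for the immune subunits. Under the 7 other scalings, backgrounds and filters with their 8 probes, at least 7 of 8 were higher in replicate 3. For the remaining groups the normexp median was -0.34, beside -0.37 for all probes, so that relative to all probes their shift was gone there, while that of the immune subunits was 1.28.

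**Figure D4:**
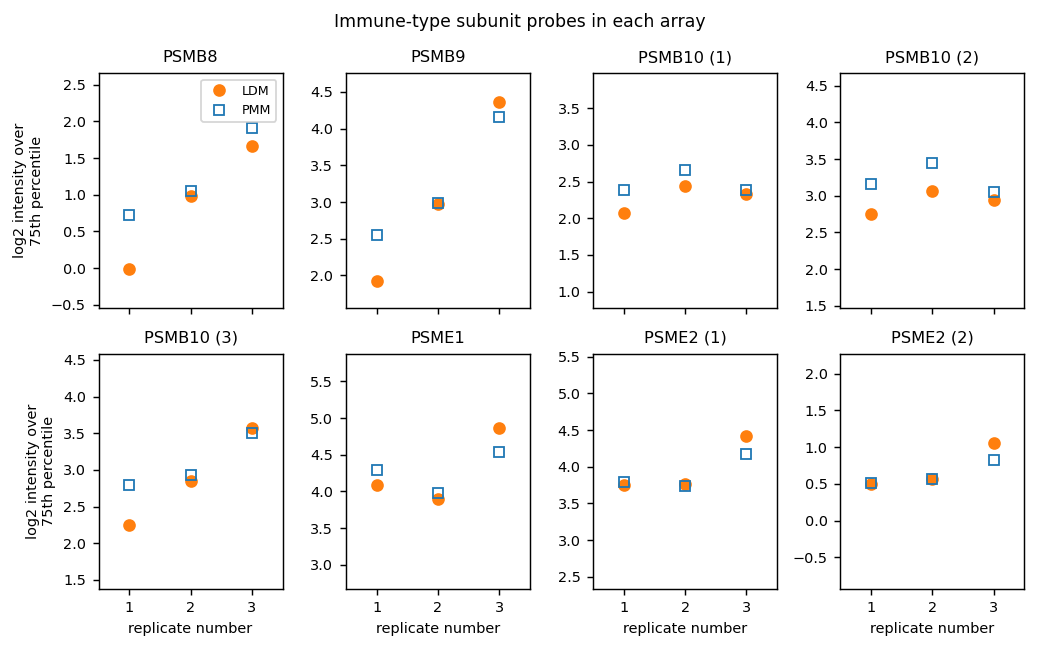
Level (log2 intensity over the array's 75th percentile, vertical axis, all panels of 1 height) of the 8 tested immune probes by replicate number, with filled orange circles for LDM and open blue squares for PMM. PSMB8, PSMB9 and the third PSMB10 probe differ more between numbers than between muscles, while the first and second PSMB10 probes, which share 50 bases, stay nearly level.

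Markers of other cells also differed between the numbers. Of all probes, 30.6% were highest in replicate 3 by the mean of both muscles, and 25.1% passed the test of the number. Of 10 leukocyte genes 8 had a probe, 4 of their 18 probes were not tested, and all 14 tested were highest in replicate 3 and passed the test of the number. Their summed level was 5.01, 11.0 and 22.5 times the 75th percentile in LDM and 6.41, 11.9 and 20.2 in PMM. The defining marker PTPRC, the common leukocyte antigen CD45, read -3.21, -1.66 and -1.25 in LDM and -2.34, -1.77 and -1.12 in PMM on its first probe. Endothelial markers were also highest in replicate 3, on 10 of 10 probes, with a summed level of 53.0 to 162, and fibroblast markers on 5 of 6, with 71.0 to 220. Adipocyte markers were highest in replicate 2 on 7 of 9 probes and in replicate 3 on the other two, by the mean of both muscles, with a summed level of 72.4 in LDM and 61.6 in PMM in replicate 1 against 222 to 244 elsewhere, and 5 passed the test of the number. FABP4, a fatty acid carrier of adipocytes, read 5.67, 7.55 and 7.63 in LDM and 5.71, 7.72 and 7.71 in PMM and made up most of that sum. Of the 11 probes of muscle fibre genes, replicate 1 held the highest array on 6 in LDM and on 11 in PMM, and 0 passed the test of the number.

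The marker lists also differed in direction between the muscles, though none of their probes was called in either fit. Of all probes, 55.9% were lower and 44.1% higher in PMM. Lower in all 3 numbers were 19.3% of all probes, and higher in all 3 were 16.3%. Some genes had several probes, which are not separate genes. Fibroblast probes (4 genes) were lower in PMM on 6 of 6, in each number, with a median of -0.47. Adipocyte probes (5 genes) were lower on 8 of 9, 7 of them in each number, with a median of -0.75. Endothelial probes (5 genes) were higher on 9 of 10, with a median of 0.28. Leukocyte probes (7 genes) were higher on 10 of 14, with a median of 0.10. Muscle fibre probes (10 genes) were higher on 8 of 11, with a median of 0.13. Among them MB was at 1.47 and TNNI1 at 1.03, both higher in each number, and 3 probes were lower. The medians of the fibroblast, adipocyte and endothelial lists were larger in size than those of the proteasome groups, which ran from -0.23 to 0.17. In whole muscle, fewer cells of a type and less RNA per cell cannot be told apart, and the part of these cells in the results between numbers and between muscles was not tested.

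Genes that work beside the immune subunits mostly ran with them. Of the 12 listed antigen-processing genes 5 had a probe, 0 of their 8 probes were called between muscles, and 6 were highest in replicate 3 by the mean of both muscles (30.6% of all probes). IRF1, the interferon response factor, read 0.64, 1.35 and 2.71 in LDM and 1.47, 1.62 and 2.75 in PMM. The second probe of TAP1 read -0.70, -1.25 and 0.89 in LDM and -0.57, -1.40 and 0.18 in PMM.

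**Figure D5:**
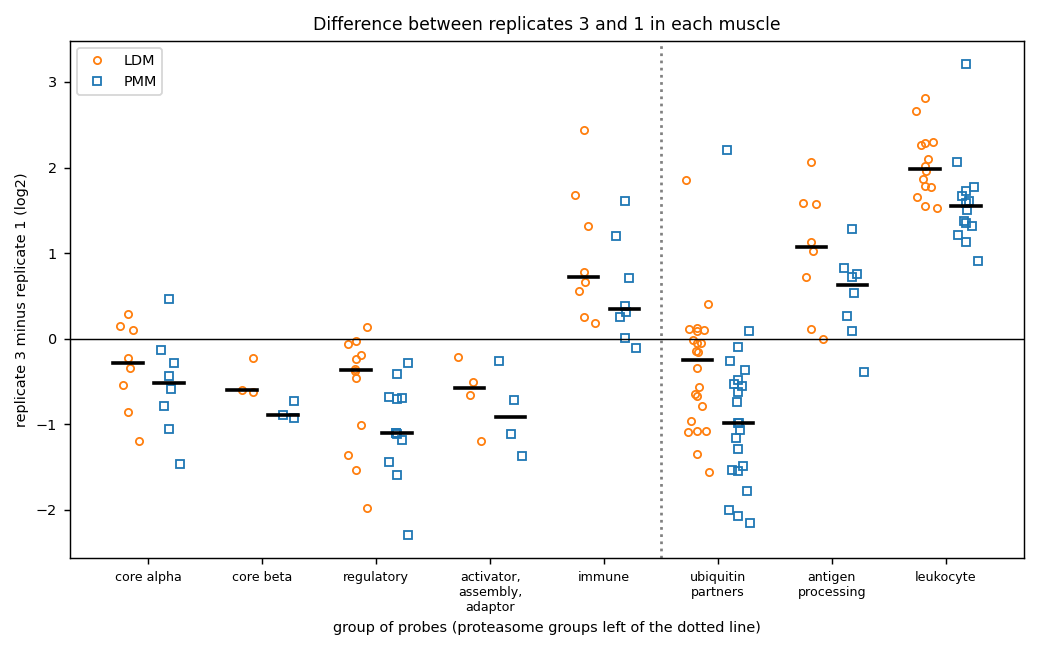
Replicate 3 minus replicate 1 (log2, vertical axis) within LDM (orange circles) and PMM (blue squares) for each tested probe of the proteasome groups and of 3 lists of other genes; black lines are medians. Immune, antigen-processing and leukocyte probes lie mostly above 0, and the remaining proteasome groups and the ubiquitin partners mostly below it.

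Of 32 listed genes that make, attach or handle ubiquitin for the proteasome, 12 had a probe. None of their 22 probes was called in either fit, 5 were higher and 17 lower in PMM, and the median was -0.12. ZFAND5, a ubiquitin-binding activator of the proteasome, gave -0.52 ± 0.36 on its first probe and -0.38 ± 0.52 on its second. The remaining ZFAND5 probe, the dimmest, gave only -0.050 ± 0.37, with differences of -0.012, 0.21 and -0.35 within the numbers. FBXO32, the muscle atrophy ubiquitin ligase atrogin-1, gave -0.38 ± 0.56 on its first probe. That probe read 4.05, 3.40 and 2.98 in LDM and 4.32, 2.80 and 2.17 in PMM. The other FBXO32 probes, both brighter, gave -0.29 ± 0.53 and -0.14 ± 0.53. UCHL5, a deubiquitinase of the regulatory particle, gave -0.24 ± 0.46, and UBE2D3, a ubiquitin-conjugating enzyme, -0.20 ± 0.38 on the third of its probes. The other UBE2D3 probes gave -0.19, -0.19 and -0.083. Of the 22 probes 19 were highest in replicate 1 by the mean of both muscles (38.2% of all probes).

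Another 8 probes of 6 subunits carried clone names as descriptions and so fell outside the rule, but had an accession that names them. They were PSMA3, PSMB4, PSMC1, PSMC5, PSMC6 and PSMD14, the last being the enzyme that removes ubiquitin. All 8 were lower in PMM, by -0.13 to -0.46 with a median of -0.27, and 7 were lower in each number, but none was called in either fit (smallest adjusted p with the block 0.532). The lowest was the second probe of PSMC5, an ATPase of the base, with 5.22, 4.09 and 4.44 in LDM and 4.95, 3.95 and 3.47 in PMM, a difference of -0.46 ± 0.47. They were found after the rule had been applied and add no test of it.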

How the data were processed

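RNA of LDM and PMM was measured on 3 one-colour Agilent arrays each. The authors deposited linear spot intensities from Agilent Feature Extraction 10.5.1.1, corrected for background and spatial trends but not normalized between arrays; their value table held the same intensities, to within 0.005. The extraction text of the labels names adipose tissue, their tissue field muscle. Control and outlier spots were left out, repeated spots averaged, and log2 intensity minus the array's 75th percentile was taken. A probe entered the test if marked as over background on each array of LDM or of PMM, with at least 2 values per muscle, in limma 3.58.1 (R 4.3.3; lmFit, eBayes; two-sided; Benjamini-Hochberg over all probes; threshold 0.05). The code was tested on simulated data. An exact permutation of the 6 arrays cannot go below p = 0.1. The main fit had no block, and every SE after ± is from it. For the blocked fit, replicate numbers were taken as pairs. That was done because both muscles came from each pig and same-numbered arrays deviated together (each correlation above 0.1, the lowest 0.560). The labels do not state the link, and the correlation cannot show a shared pig, because same-numbered arrays also shared a scan date. Values on every array are given for the tested immune probes, the 3 largest differences of each other group and any probe called; of the ubiquitin list, called genes and the 5 genes with the largest differences were to be named, of which 1 is not reported here. PSMD1, the further PSMA6 and PSMD10 probes, IRF1, TAP1 and the subunits outside the rule were named after their values were seen. Members, lists and rules were chosen with earlier results of these data known. Of the marker lists, the erythrocyte list had 0 probes. Names come from RefSeq (Sscrofa11.1), without coordinates. Alternatives were normexp, quantile, median and detected-probe scaling, other filters, outliers kept, the deposited table, blocks by number and slide, the brightest probe per gene, and leaving out arrays, whose number limits the precision.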

Additional observations from a re-analysis of the deposited data

How the results depend on the processing

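No proteasome probe and no gene of the ubiquitin list was called under any of the 22 alternatives, and the smallest adjusted p of a member ranged from 0.101 to 0.999996. The number of all probes called was 8; it was 1 with normexp, 0 with the percentile over detected probes, 0 with no filter, 0 with detection on all 6 arrays, 0 with outlier spots kept, 0 with the brightest probe per gene and 0 to 1 without 1 array. Pairing by number gave 17 with the replicate block, 0 with the block and quantile normalization, 795, 1 and 0 without number 1, 2 and 3, and 195 with the block and the brightest probes (added after seeing the data); the slide as a block gave 300. The causes were not tested.

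The median of the alpha ring kept its negative sign under all 22 alternatives (-0.37 to -0.058), and those of the other groups did not keep theirs. Leaving out 1 array gave -0.42 to 0.046 for the beta ring, -0.50 to 0.13 for the regulatory particle, -0.12 to 0.29 for the immune subunits and -0.34 to 0.054 for the activator, assembly and adaptor probes. With normexp, the beta ring was at -0.46 and the activator, assembly and adaptor probes at -0.34; with the brightest probe per gene the latter were at 0.051 with and without the block. The count of 9 probes differing between replicate numbers, itself added after seeing the data, was 0 with normexp, 0 with no filter and 0 to 11 without 1 array.

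Single probes crossed 0 as follows, none of them called. With normexp, PSMB9 was at -0.036, the second alpha-type probe at 0.23 and PSME3 at -0.12. PSME1 was at 0.031 with quantile normalization, with and without the block, and at 0.024 with the percentile over detected probes. In the replicate block without number 1, PSMB9 was at -0.094 and PSME3 at -0.018. Without number 3, PSME1 was at 0.15, PSME2 at 9.6e-05 and 0.0062, PSMB7 at 0.0026 and PSMD4 at 0.049. With the slide as a block PSMB9 was at -0.042. Leaving out 1 array gave ranges of -0.097 to 0.75 for PSMB8, -0.44 to 0.78 for PSMB9, -0.13 to 0.53 for the third PSMB10 probe, -0.20 to 0.28 for PSME1, -0.22 to 0.14 and -0.18 to 0.10 for PSME2, -0.57 to 0.027 for the second alpha-type probe, -0.43 to 0.099 for PSMA5, -0.42 to 0.046 for PSMB4, -0.28 to 0.090 for PSMB7, -0.60 to 0.038 for PSMD12, -0.74 to 0.055 for the second PSMD4 probe, -0.69 to 0.0016 for the first ECM29 probe and -0.16 to 0.40 for PSME3.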
